A study of Drosophila melanogaster with 8 samples.

Results

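The cuticle protein genes described here are the rows of a Drosophila melanogaster imaginal disc RNA-seq count table whose FlyBase symbol, joined by gene identifier, starts with Cpr, Lcp, Ccp84A, Twdl or Vajk. A row was a member when it reached 1 CPM (counts over the library's assigned total, times 1000000) in at least 1 of the 8 libraries. The prefixes caught 125 rows, and 69 of them passed. 1 of the 69, Cpr, is the cytochrome P450 reductase and no cuticle protein, so 68 members of 124 cuticle rows are described. By family these were 41 of 70 Cpr rows, 12 of 17 Lcp rows, 3 of 7 Ccp84A rows, 8 of 26 Twdl rows and all 4 Vajk rows. For scale, 10032 of the 15348 genes in the table reached 1 CPM in a library.

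Insect cuticle is a layered secretion of the epidermis in which chitin fibres are embedded in a large set of small secreted proteins. Most Cpr, Lcp and Ccp84A proteins carry the Rebers and Riddiford domain, which binds chitin, while Tweedle (Twdl) proteins have a conserved region of their own and Vajk proteins form a small group known from barrier formation in the fly embryo. Each stage and body region uses its own mixture of these proteins, and pulses of the steroid hormone ecdysone time their genes. Lcp1 to Lcp4 are known as proteins of last instar larval cuticle, which the larval epidermis makes, while imaginal discs are sacs of epithelium that later make pupal and adult cuticle.

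Each group had 1 library, made from the discs of 50 to 60 wandering last instar larvae raised at 25 °C. The groups were RasV12 scrib BskDN (6 days after egg laying), RasV12 scrib late (11 days), RasV12 scrib early (7 days), scrib BskDN (6 days), BskDN (11 days), RasV12 (5 days), a scrib mutant labelled wing disc (6 days) and control (5 days). All but the wing-labelled library were labelled eye-antennal disc, and those 7 share y, w, eyflp, an act>y+>Gal4 driver, UAS-GFP and an FRT82 e, tub-GAL80 chromosome. The FLP recombinase under eyeless control gives clones in which GAL80 is lost and Gal4 drives the transgenes, so that each of these libraries mixes clone cells with other disc cells in an unmeasured ratio. The chromosome opposite it was plain FRT82 in BskDN, RasV12 and control and carried a scrib allele, given as scrib[2 with its end cut short, in the libraries named scrib. RasV12 is an activated Ras expressed from UAS-Ras[V12], scrib encodes a polarity protein, and BskDN is a dominant negative form of the JNK kinase Bsk expressed from UAS-Bsk[DN]. The wing-labelled larvae were w/+ with FRT82 e scrib[2] over scrib[1] throughout, with no clones. Ages differ between many of the groups, so that genotype and age cannot be told apart in most pairs. The early and late RasV12 scrib libraries share a labelled genotype and differ in age, at 7 and 11 days.

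The libraries held 17152279 to 21027972 counts assigned to genes, and 3 counts, taken as the floor, were worth 0.142 to 0.181 CPM. With 1 library a group there is no replicate check and no test. Levels below are normalized CPM, scaled with edgeR's trimmed mean of M values, and every interval covers counting error at 95% only. Ras85D, the gene of the Ras transgene, stood at 426, 1181, 655 and 464 CPM in the RasV12 scrib BskDN, late, early and RasV12 libraries, against 253 CPM in control. bsk stood at 1891, 1607 and 749 CPM in RasV12 scrib BskDN, scrib BskDN and BskDN, against 99.0 CPM in control. scrib transcript was at 363 to 510 CPM in all 8 libraries, and an allele that still makes transcript would not show in it. The summed level of 5 eye disc genes was 181 CPM in the wing-labelled scrib library and 413 to 1019 CPM in the other 7. The wing genes vg and nub were at only 2.18 and 3.63 CPM in that library, against 1.45 and 5.37 CPM in control, so that these wing genes do not bear out its label. It enters no comparison of a pair of libraries, but it does count among the 8 libraries where the highest library of a member is given.

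The control discs stood apart from the other 7 libraries in cuticle protein transcripts, and Lcp and Vajk genes made up most of that. Summed over the 68 members, the level was 666 CPM in RasV12 scrib BskDN, 378 CPM in RasV12 scrib late, 370 CPM in RasV12 scrib early, 771 CPM in scrib BskDN, 877 CPM in BskDN, 477 CPM in RasV12, 742 CPM in wing-labelled scrib and 5374 CPM in control discs, where it was 0.541% of all assigned counts. In all, 41 of the 68 members had their highest level in control. The other 27 were highest in RasV12 (8), scrib BskDN (7), RasV12 scrib late (2), RasV12 scrib early (5), BskDN (2), wing-labelled scrib (2) and RasV12 scrib BskDN (1). Without the wing-labelled library, control was highest for 41 as well. The share of all genes with their highest level in control was not computed, so these counts cannot be set against a background.

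The 12 Lcp genes held the largest share of the control level. Their sum was 21.7 CPM in RasV12 scrib BskDN, 15.3 and 31.2 CPM in the late and early RasV12 scrib libraries, 397 CPM in scrib BskDN, 248 CPM in BskDN, 16.0 CPM in RasV12, 32.2 CPM in wing-labelled scrib and 3152 CPM in control. Control was therefore highest, and scrib BskDN and BskDN lay between it and the other 5 libraries. Against control, the Lcp sum was 197-fold lower in RasV12 (95% interval 177 to 221), 12.7-fold lower in BskDN (12.3 to 13.1) and 7.94-fold lower in scrib BskDN (7.76 to 8.13).

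The 4 Vajk genes summed to 16.6 CPM in RasV12 scrib BskDN, 4.29 and 6.10 CPM in the late and early RasV12 scrib libraries, 20.5 CPM in scrib BskDN, 29.9 CPM in BskDN, 15.3 CPM in RasV12, 3.81 CPM in wing-labelled scrib and 1438 CPM in control. Here scrib BskDN and BskDN stayed 70.1-fold and 48.0-fold below control, farther below it than for the Lcp genes. The 41 Cpr genes summed to 276 CPM (RasV12 scrib early) to 746 CPM (control) over the 8 libraries, a much narrower range. 1 gene, Cpr49Ac, held 70.0, 71.7 and 69.7% of this sum in RasV12 scrib BskDN, BskDN and wing-labelled scrib. In control the top Cpr gene, Cpr47Ec, held 14.8%, so that the narrow range does not describe most Cpr genes. The Twdl sum ranged over 17.5 CPM in wing-labelled scrib to 68.9 CPM in scrib BskDN, and it was 30.0 CPM in control, below every library but the wing-labelled one. The Ccp84A sum was low throughout, at 0.549 CPM in RasV12 scrib late to 7.89 CPM in control.

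**Figure D1:**
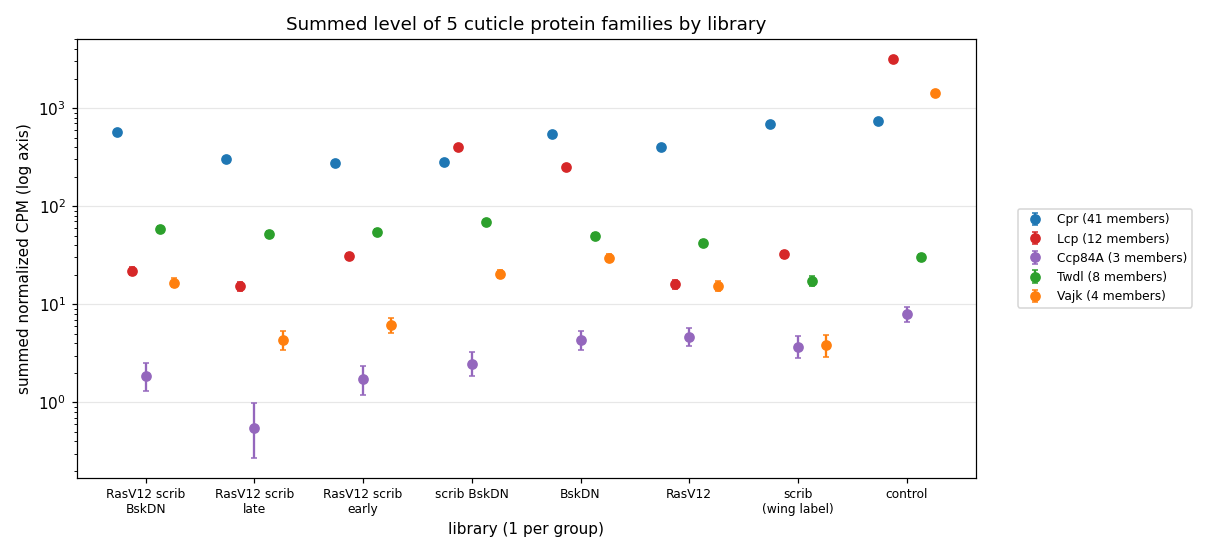
Summed normalized CPM of the members of each family (log axis) by library, 1 library per group. Error bars are exact Poisson 95% intervals. The Lcp sum of 3152 CPM and the Vajk sum of 1438 CPM in control stand far above those of the other 7 libraries, while the Cpr and Twdl sums vary less.

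Lcp1, Lcp2, Lcp3 and Lcp4 lie together on chromosome arm 2R, between 8430115 and 8438495 of the BDGP6 build. Lcp4 (8437647 to 8438495) had 8.18 CPM in RasV12 scrib BskDN, 0.798 and 0.667 CPM in the late and early RasV12 scrib libraries, 80.5 CPM in scrib BskDN, 116 CPM in BskDN, 2.04 CPM in RasV12, 15.8 CPM in wing-labelled scrib and 1234 CPM in control. Lcp1 had 6.34 CPM in RasV12 scrib BskDN, 0.648 and 0.524 CPM in the late and early RasV12 scrib libraries, 138 CPM in scrib BskDN, 88.4 CPM in BskDN, 2.63 CPM in RasV12, 5.44 CPM in wing-labelled scrib and 531 CPM in control. Lcp2 had 0.286 CPM (RasV12 scrib early) to 2.30 CPM (wing-labelled scrib) in 5 libraries, 104 CPM in scrib BskDN, 33.8 CPM in BskDN and 429 CPM in control. All 3 were highest in control and next highest in the 2 libraries with BskDN and no Ras transgene. Lcp1 and Lcp2 are similar in sequence, and their split is uncertain.

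Lcp3 did not follow its neighbours in BskDN discs, and its share was low in other libraries too. It had 0.291 CPM in RasV12 scrib BskDN, 0.0998 and 0.0952 CPM in the late and early RasV12 scrib libraries, 59.8 CPM in scrib BskDN, 2.33 CPM in BskDN, 0.248 CPM in RasV12, 0.665 CPM in wing-labelled scrib and 332 CPM in control. Of the counts of Lcp1 to Lcp4 together, Lcp3 held 15.7% in scrib BskDN (exact binomial interval 14.9 to 16.5), 0.968% in BskDN (0.704 to 1.30) and 13.2% in control (12.8 to 13.5). The share in scrib BskDN was thus close to that in control and the share in BskDN was far below both. It was also low in RasV12 scrib BskDN (1.76%), wing-labelled scrib (2.74%) and RasV12 (4.50%). The late and early RasV12 scrib shares (5.41 and 6.06%) rest on 2 Lcp3 counts each, with intervals up to 18.2 and 20.2%. Set against BskDN, scrib BskDN had 25.7-fold more Lcp3 (19.0 to 35.5), the higher fold of the 2 members called higher in that pair.

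Lcp9, which lies farther along the same arm (24779979 to 24780428), was below 5 CPM in every library but control. It had 0.581 CPM in RasV12 scrib BskDN, 0.200 and 0.143 CPM in the late and early RasV12 scrib libraries, 4.36 CPM in scrib BskDN, 2.38 CPM in BskDN, 0.248 CPM in RasV12, 3.51 CPM in wing-labelled scrib and 432 CPM in control. Lcp65Ac of the 65A cluster on 3L was of the same kind, with 0.484 to 3.46 CPM in the 7 other libraries and 166 CPM in control. Per kilobase of exon, the control levels were 1558 CPM for Lcp4, 1095 CPM for Lcp9, 499 CPM for Lcp1, 462 CPM for Lcp2, 455 CPM for Lcp3 and 328 CPM for Lcp65Ac.

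Vajk2 and Vajk3, neighbours on 2L, were the Vajk genes behind the control level. Vajk3 (13944756 to 13947476) had 1.36 CPM in RasV12 scrib BskDN, 0.599 and 0.619 CPM in the late and early RasV12 scrib libraries, 2.89 CPM in scrib BskDN, 5.56 CPM in BskDN, 0.397 CPM in RasV12, 1.33 CPM in wing-labelled scrib and 714 CPM in control. Vajk2 had 0.648 CPM (RasV12 scrib late) to 9.22 CPM (BskDN) in the 7 other libraries and 712 CPM in control. Their per-kilobase levels in control were 534 CPM for Vajk2 and 505 CPM for Vajk3.

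Vajk1, the remaining gene of the 2L group, was also highest in control, at a much lower level. It had 5.71 CPM in RasV12 scrib BskDN, 0.499 and 1.24 CPM in the late and early RasV12 scrib libraries, 1.70 CPM in scrib BskDN, 6.89 CPM in BskDN, 1.79 CPM in RasV12, 1.09 CPM in wing-labelled scrib and 9.99 CPM in control. RasV12 scrib BskDN and BskDN thus lay close to control, and the other 5 libraries lay below 2 CPM. Vajk4, which lies on 2R, had 5.47 CPM in RasV12 scrib BskDN, 2.54 and 3.48 CPM in the late and early RasV12 scrib libraries, 11.4 CPM in scrib BskDN, 8.27 CPM in BskDN, 11.6 CPM in RasV12, 0.484 CPM in wing-labelled scrib and 2.26 CPM in control. Its control level was thus the lowest of the eye-antennal libraries, while the 3 Vajk genes on 2L were highest in control. The control interval of Vajk4 (1.63 to 3.05 CPM) overlapped those of RasV12 scrib late (1.89 to 3.34) and early (2.72 to 4.37). Vajk1 to Vajk3 lie within the gene Ance-3 but share no exon bases with it, and Ance-3 itself was at 0 to 3.19 CPM in the 7 other libraries and 22.6 CPM in control.

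The sums of muscle and of hemocyte markers were highest in control as well. The summed level of the 13 matched muscle genes was 424 CPM in RasV12 scrib BskDN to 1364 CPM in wing-labelled scrib over the 7 libraries and 5591 CPM in control. The 8 matched hemocyte genes summed to 457 to 1376 CPM in the 7 libraries and 2179 CPM in control. Singly they were less even. At 4-fold and 5 CPM, 5 were lower than control in RasV12 and 1 in each of scrib BskDN and RasV12 scrib late. In BskDN, RasV12 scrib BskDN and RasV12 scrib early 0 were lower, against 3.15 to 4.36% of all genes over these comparisons. Their median log2 difference was -2.07 (RasV12) to -0.24 (BskDN). 1 gene, Msp300, held much of the muscle sum outside control. Without it, a sum chosen after seeing the data, the other 12 muscle genes summed to 141 CPM in RasV12 scrib BskDN, 121 and 449 CPM in the late and early RasV12 scrib libraries, 553 CPM in scrib BskDN, 144 CPM in BskDN, 276 CPM in RasV12, 540 CPM in wing-labelled scrib and 4857 CPM in control. The muscle genes were thus lower in the 7 other libraries by more than the full sum shows. Of the 12 muscle genes at 1 CPM or more in a library, 8 (scrib BskDN) to 11 (RasV12 scrib BskDN) were at least 4-fold lower than in control at 5 CPM or more in the higher library, against 3.15 to 4.36% of all genes. Their median log2 difference from control was -5.41 (RasV12 scrib late) to -3.05 (scrib BskDN). Among the 7 other libraries, scrib BskDN had the highest Lcp sum and the highest muscle sum without Msp300, while BskDN, next for Lcp, was among the 3 lowest for muscle. No muscle or hemocyte marker was at 0 in any library. The fat body sum was highest in BskDN (5836 CPM, against 752 CPM in control), and the salivary gland sum in scrib BskDN was 1080 CPM, with 1608 CPM in RasV12 and 64.0 CPM in control. Of these lists Adh (fat body) was at 0 in 4 libraries, and ng1 and ng2 (salivary gland) in 5. The trachea, neuron and glia sums in control (2193, 151 and 423 CPM) lay within or below the range of the other 7 libraries. The trachea sum is mostly Gasp, serp, verm and pio, which are also on the chitin or apical matrix lists described below. It is therefore no separate measure of trachea. The remaining trachea gene, trh, was at 1.95 CPM (RasV12 scrib early) to 15.8 CPM (scrib BskDN) in the 7 other libraries. Only scrib BskDN was above control for trh. No list of larval epidermis genes was used, and the part of other tissues in the cuticle protein levels was not tested. In such bulk samples, fewer cells of a type and less RNA per cell cannot be told apart.

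**Figure D2:**
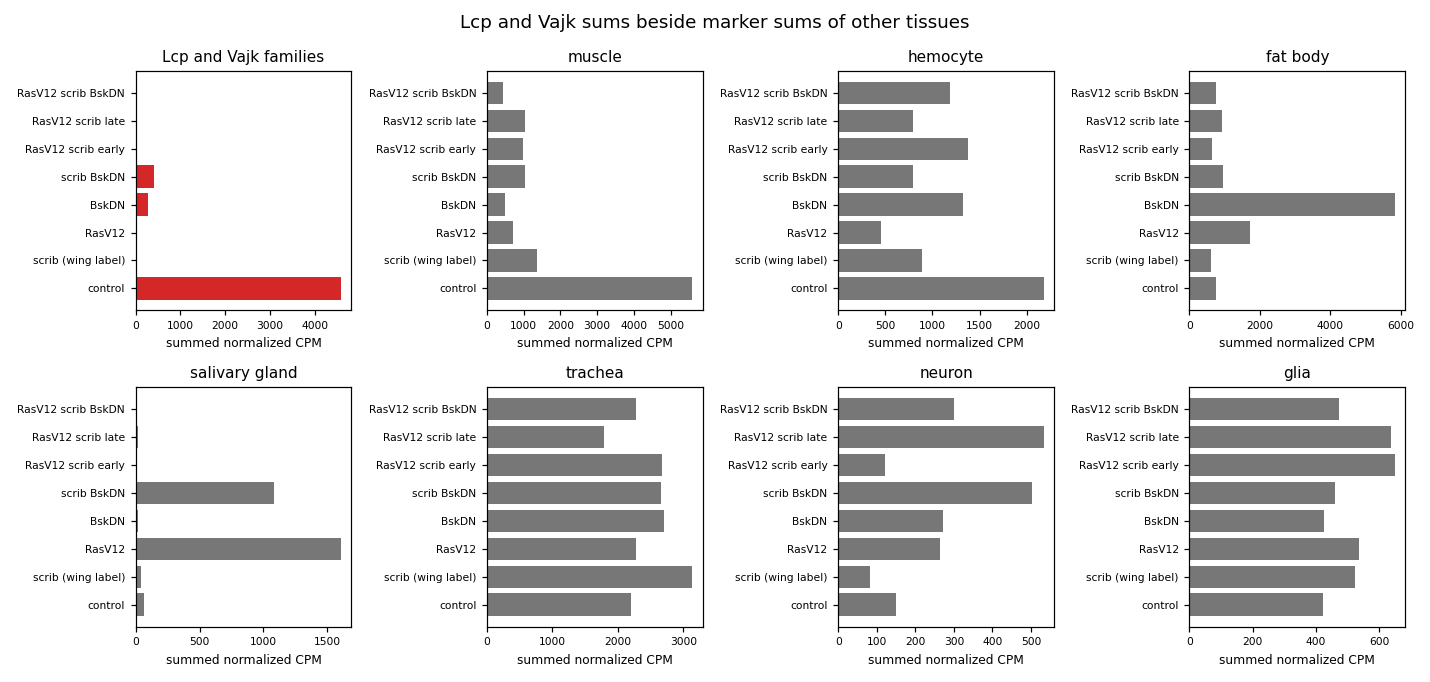
Summed normalized CPM of the Lcp and Vajk members (red) and of 7 marker lists of other tissues (grey), by library, with linear axes that start at 0. The muscle sum includes Msp300. Muscle (5591 CPM) and hemocyte (2179 CPM) sums are highest in control, as are the Lcp and Vajk sums, while fat body is highest in BskDN and salivary gland in RasV12.

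Cpr genes were the larger number of those that stood out in control, at lower levels. A member or gene was counted here when its level in 1 library was at least 5 CPM and at least 4-fold above each of the other 7. For control this held for 23 of the 68 members (33.8%), against 1.42% of all 10032 genes. Without the wing-labelled library it held for 23 members too, against 1.56% of all genes, an alternative chosen after seeing the data. The 23 were 16 Cpr, 5 Lcp and 2 Vajk genes, and together they summed to 11.4 CPM (RasV12 scrib late) to 275 CPM (scrib BskDN) in the 7 other libraries and 4449 CPM in control. A member enters the set through its highest library, so that a low gene that enters through control has to be lower elsewhere. The same holds for the 10032 genes. No member met this count in RasV12 scrib BskDN, RasV12 scrib early, BskDN or wing-labelled scrib, where 0.00997, 0.0199, 0.279 and 0.0299% of all genes did.

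Cpr47Ec had 0.339 CPM in RasV12 scrib BskDN, 0.748 and 1.29 CPM in the late and early RasV12 scrib libraries, 1.70 CPM in scrib BskDN, 1.22 CPM in BskDN, 1.94 CPM in RasV12, 0.544 CPM in wing-labelled scrib and 111 CPM in control. Cpr11B was at 0.150 to 2.36 CPM in the 7 other libraries and 88.0 CPM in control. Cpr49Ag differed in that RasV12 scrib BskDN had 11.7 CPM, between the 0.0530 to 1.94 CPM of the other 6 libraries and the 49.6 CPM of control. All 3 encode proteins of the Cpr family, named for their map position. Cpr65Ax1 had 0 counts in each of the other 7 libraries and 152 counts (8.16 CPM) in control. Its near-identical copy Cpr65Ax2 was at or near 0 throughout. Reads that fit both copies equally are not in the counts, so that the level of either is uncertain. The same holds for Lcp65Ag1, Lcp65Ag2 and Lcp65Ag3 and for Cpr67Fa1 and Cpr67Fa2.

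Among the remaining Cpr genes of this group, the library next to control varied. Cpr11A had 0.872 CPM in RasV12 scrib BskDN, 1.85 and 7.38 CPM in the late and early RasV12 scrib libraries, 1.18 CPM in scrib BskDN, 0.318 CPM in BskDN, 0.745 CPM in RasV12, 2.00 CPM in wing-labelled scrib and 32.8 CPM in control. Cpr67B had 5.11 CPM in scrib BskDN, 6.31 CPM in BskDN, 0.678 to 2.36 CPM in 5 libraries and 27.9 CPM in control. RasV12 scrib early was thus next to control for Cpr11A, while BskDN and scrib BskDN were next for Cpr67B. Cpr49Af had 14 counts in scrib BskDN (0.663 CPM), at most 1 count in each of the other 6 libraries and 14.7 CPM in control. Cpr65Av and Cpr65Aw of the 65A cluster and Cpr31A on 2L reached 13.7, 10.8 and 11.0 CPM in control. Their highest levels elsewhere were 0.379 CPM (scrib BskDN), 0.899 CPM (scrib BskDN) and 1.44 CPM (RasV12). Cpr49Ah missed the count with 6.85 CPM in RasV12 and 18.7 CPM in control, as did Cpr100A with 2.76 CPM in BskDN and 10.3 CPM in control.

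**Figure D3:**
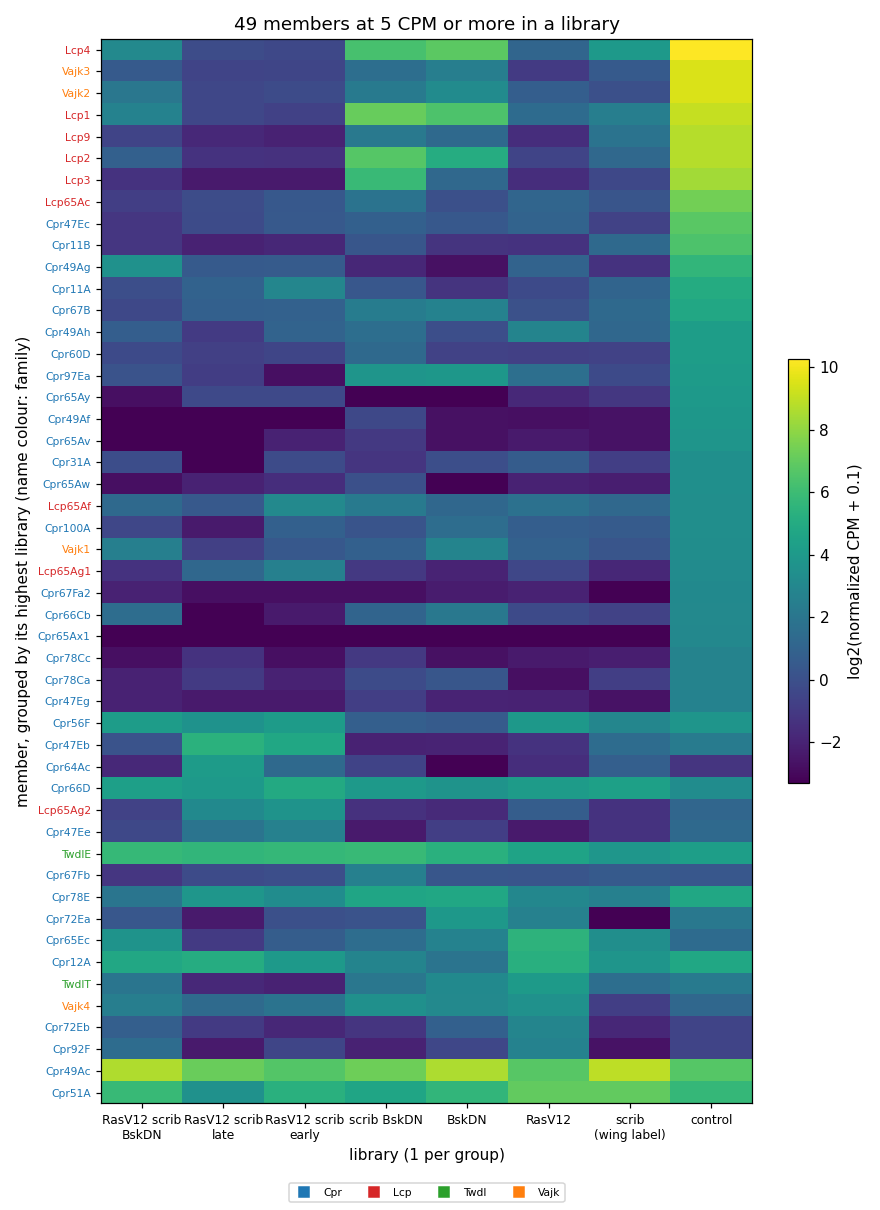
Log2 of normalized CPM plus 0.1 for the 49 members at 5 CPM or more in a library (rows, name colour by family) in the 8 libraries (columns). The upper 31 rows are highest in control, and the rows below them are highest in another library.

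8 members reached 1 CPM in every library and 4 reached 5 CPM in every library. Cpr49Ac, on 2R, was the highest of these per kilobase, with up to 226 CPM per kilobase of exon in wing-labelled scrib. Its level was 397 CPM in RasV12 scrib BskDN, 142 and 98.5 CPM in the late and early RasV12 scrib libraries, 154 CPM in scrib BskDN, 391 CPM in BskDN, 105 CPM in RasV12, 478 CPM in wing-labelled scrib and 103 CPM in control. The libraries fell apart into 3 at 391 CPM or more (RasV12 scrib BskDN, BskDN and wing-labelled scrib) and 5 at 154 CPM or less, in an order that followed neither the Ras transgene nor scrib. Cpr51A had 56.0 CPM in RasV12 scrib BskDN, 11.7 and 40.0 CPM in the late and early RasV12 scrib libraries, 25.8 CPM in scrib BskDN, 49.2 CPM in BskDN, 126 CPM in RasV12, 127 CPM in wing-labelled scrib and 53.2 CPM in control. Cpr66D was highest in RasV12 scrib early, at 30.4 CPM, and lowest in control, at 9.67 CPM. Without Cpr49Ac and Cpr51A, the members summed to 138 CPM (wing-labelled scrib) to 591 CPM (scrib BskDN) in the 7 other libraries and 5217 CPM in control.

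A pair of further Cpr genes was lowest in the libraries with BskDN and no Ras transgene. Cpr12A had 6.86 CPM in scrib BskDN and 3.66 CPM in BskDN, 13.3 to 37.7 CPM in 5 libraries and 27.6 CPM in control. Cpr56F had 1.66 CPM in scrib BskDN and 1.38 CPM in BskDN, 7.50 to 18.3 CPM in 5 libraries and 13.3 CPM in control. In Cpr97Ea the same libraries instead lay near control, with 13.6 CPM in scrib BskDN and 14.3 CPM in BskDN, 0.0476 to 3.03 CPM in 5 libraries and 17.7 CPM in control. These 3 genes were picked after their values were seen.

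RasV12 discs held less of most members than control discs and more of a few. With a call at 4-fold or more on the log2 scale (prior count 2) and at least 5 CPM in the higher library, 4 of the 68 members were higher in RasV12 than in control, against 0.927% of all genes, and 29 were lower, against 3.27%. The members' median log2 difference was -2.58, against 0.03 over all genes. The lower calls were 19 Cpr, 7 Lcp and 3 Vajk genes, and the folds were highest for Vajk3 (1797-fold lower, 912 to 4162), Lcp9 (1738-fold lower, 745 to 5355, from 5 counts in RasV12) and Lcp3 (1338-fold lower, 573 to 4123, from 5 counts in RasV12).

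The higher calls in RasV12 were Cpr65Ec, Cpr72Eb, Cpr92F and Vajk4. Cpr65Ec had 12.4 CPM in RasV12 scrib BskDN, 0.399 and 1.52 CPM in the late and early RasV12 scrib libraries, 2.84 CPM in scrib BskDN, 6.46 CPM in BskDN, 43.9 CPM in RasV12, 10.3 CPM in wing-labelled scrib and 2.63 CPM in control. It was 16.7-fold higher in RasV12 than in control (12.5 to 22.7) and also higher in RasV12 scrib BskDN (4.73-fold, 3.47 to 6.56). The RasV12 scrib libraries without BskDN lay below control. Cpr72Eb had 7.10 CPM in RasV12, 0.181 to 1.70 CPM in 6 libraries and 0.591 CPM in control, with an interval of 6.52-fold to 24.6-fold for RasV12 over control. It was the only member at least 4-fold above each of the other 7 libraries in RasV12, which held for 0.0897% of all genes. Cpr92F had 6.46 CPM in RasV12 and 0.591 CPM in control (10.9-fold, 5.91 to 22.4).

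The Tweedle gene TwdlT was also highest in RasV12. It had 3.78 CPM in RasV12 scrib BskDN, 0.200 and 0.143 CPM in the late and early RasV12 scrib libraries, 4.07 CPM in scrib BskDN, 8.69 CPM in BskDN, 17.1 CPM in RasV12, 2.90 CPM in wing-labelled scrib and 4.51 CPM in control. Its 3.79-fold difference between RasV12 and control (2.98 to 4.87) missed the 4-fold call. The lowest levels were those of the late and early RasV12 scrib libraries, at 4 and 3 counts.

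The late and early RasV12 scrib libraries shared with RasV12 the low Lcp and Vajk levels. A few Cpr genes and Lcp65Ag2 had their highest level in the late or the early RasV12 scrib library. In RasV12 scrib late, 2 members were higher than in control (5.94% of all genes, so the share of members, 2.94%, was below the background) and 32 lower (3.94%). In RasV12 scrib early, 2 were higher (1.01% of all genes) and 29 lower (4.36%). Lcp3 and Lcp9 had 2 and 4 counts in RasV12 scrib late and 2 and 3 counts in RasV12 scrib early. For RasV12 scrib early this gave ratios of control to it of 3489 for Lcp3 (965 to 28815) and 3021 for Lcp9 (1033 to 14652). These comparisons share the control library, so they are not independent of each other.

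Cpr47Eb had 1.02 CPM in RasV12 scrib BskDN, 41.3 and 27.8 CPM in the late and early RasV12 scrib libraries, 0.142 CPM in scrib BskDN, 0.159 CPM in BskDN, 0.298 CPM in RasV12, 2.72 CPM in wing-labelled scrib and 4.89 CPM in control. It was higher than in control in both, 8.45-fold in RasV12 scrib late (6.80 to 10.6) and 5.68-fold in RasV12 scrib early (4.55 to 7.17). Both RasV12 scrib libraries without BskDN thus lay above all others. Cpr47Ee, of the same gene cluster, had 3.69 and 6.10 CPM in the late and early libraries and 0.0947 to 2.36 CPM in the other 6. Lcp65Ag2 had 8.63 and 12.5 CPM in the late and early libraries and 0.212 to 2.15 CPM in the other 6, and was 5.81-fold higher in RasV12 scrib early than in control (4.15 to 8.32). Cpr49Aa was lower still, at 1.35 and 3.14 CPM in the late and early libraries, 0.533 CPM in RasV12 scrib BskDN, 1 count in scrib BskDN and 0 counts in the other 4.

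Only a pair of members passed the call between the late and the early RasV12 scrib libraries, although 5.24% of all genes were higher in the late library and 0.14% lower. Cpr64Ac, on 3L, had 0.194 CPM in RasV12 scrib BskDN, 17.8 and 2.38 CPM in the late and early RasV12 scrib libraries, 0.568 CPM in scrib BskDN, 0 counts in BskDN, 0.248 CPM in RasV12, 1.63 CPM in wing-labelled scrib and 0.322 CPM in control. It was 7.48-fold higher in the late than in the early library (5.55 to 10.3) and 55.3-fold higher in the late library than in control (25.1 to 152). It was the only member at least 4-fold above every other library in RasV12 scrib late, which held for 0.787% of all genes. Lcp65Af was 6.39-fold lower in the late than in the early library (4.22 to 10.1), at 1.30 and 8.29 CPM.

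**Figure D4:**
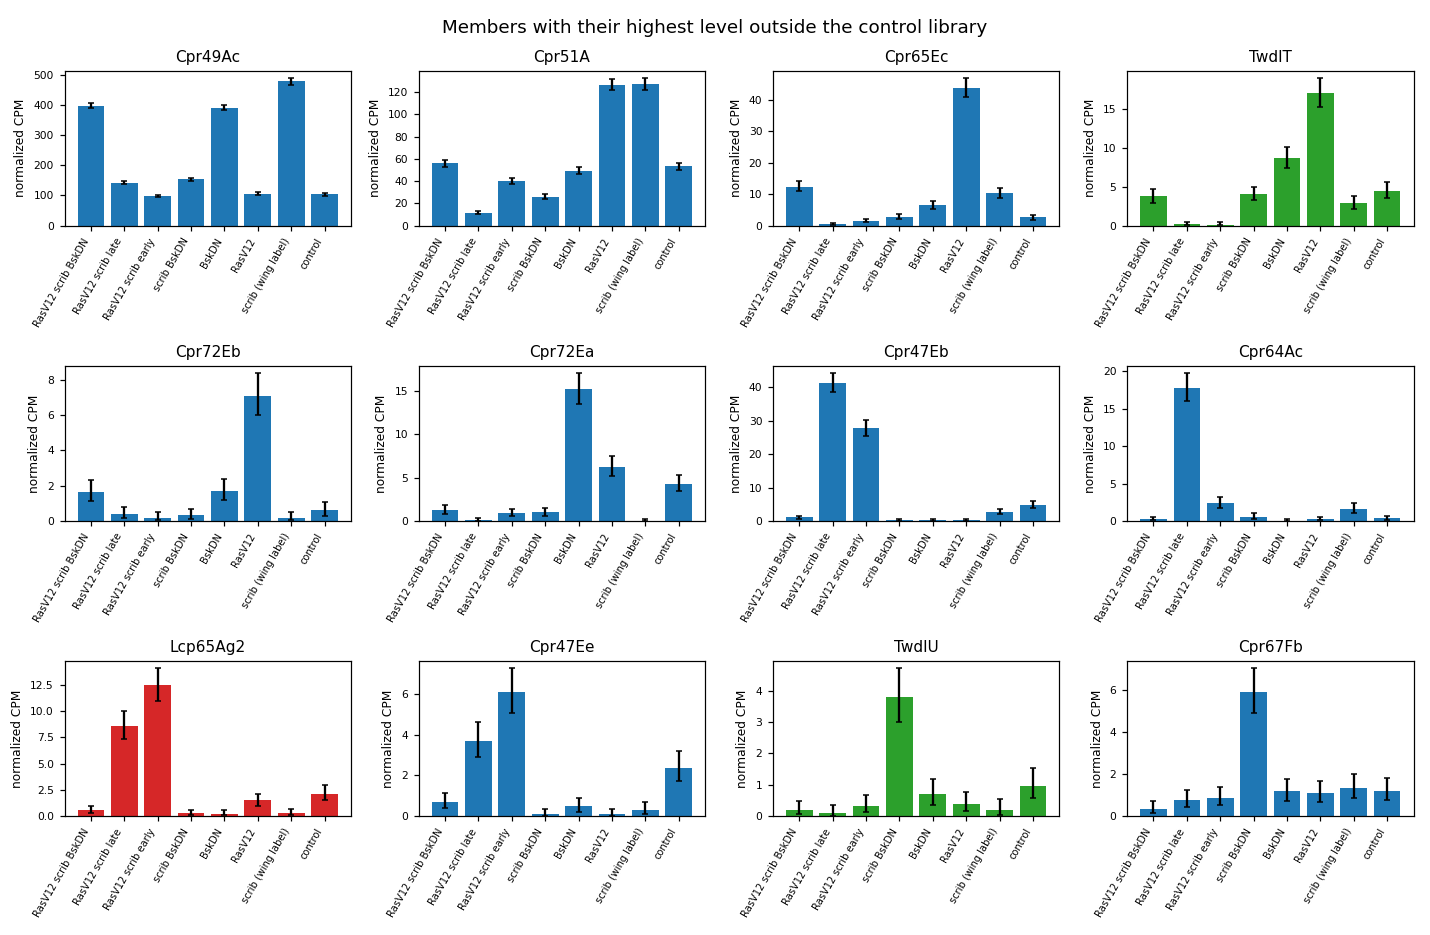
Normalized CPM (linear axes that start at 0) of 12 members whose highest level was outside the control library, by library, with exact Poisson 95% intervals. Cpr65Ec and Cpr72Eb peak in RasV12 (43.9 and 7.10 CPM), and Cpr47Eb, Lcp65Ag2, Cpr47Ee and Cpr64Ac are highest in the late or early RasV12 scrib library.

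Setting RasV12 scrib BskDN beside RasV12 scrib early asks what goes with the JNK block in discs of otherwise the same labelled genotype, 1 day apart in age. Of the 68 members 6 were higher (2.4% of all genes) and 5 lower (1.56%), and the members' median log2 difference was 0.01, against 0.03 over all genes. Higher with BskDN were Lcp4 (8.18 CPM, against 0.667 CPM, 12.3-fold, 7.12 to 22.9), Lcp1 (12.1-fold, 6.55 to 24.9), Cpr49Ag (11.7 CPM, against 1.38 CPM, 8.49-fold, 5.76 to 12.9), Cpr65Ec (8.17-fold), Vajk1 (4.62-fold) and Cpr49Ac. The call of Cpr49Ac (4.03-fold, 3.84 to 4.23) sits at the threshold and was lost under both other scalings, with log2 differences of 1.96 and 1.95. Lower with BskDN were Cpr47Eb (27.3-fold, 17.7 to 44.4), Lcp65Ag2 (23.4-fold, 12.9 to 47.5), Lcp65Ag1 (20.2-fold, 9.00 to 56.0), Cpr47Ee (8.99-fold) and Cpr11A (8.47-fold). Of the 12 muscle genes 4 were lower with BskDN and 0 higher (median log2 difference -1.36). The part of other tissues in the members' differences was not tested.

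Even so, RasV12 scrib BskDN stayed far from control. Of its members 1 was higher than in control (Cpr65Ec, 1.11% of all genes) and 30 were lower (3.41%). Its Lcp1 to Lcp4 levels summed to 16.5 CPM. The lower calls with the highest folds were Lcp3 (1144-fold, 525 to 3117), Lcp9 (743-fold, 425 to 1438) and Vajk3 (526-fold, 364 to 792).

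BskDN and scrib BskDN discs, without the Ras transgene, had more Lcp transcript than the other libraries outside control. In BskDN no member was higher than in control (0.688% of all genes) and 29 were lower (3.28%), by 10.6-fold for Lcp4 (10.2 to 11.1) but by 143-fold for Lcp3 (106 to 196), 181-fold for Lcp9 (135 to 248) and 128-fold for Vajk3 (106 to 157). Cpr49Ag (937-fold lower, 168 to 37034, from 1 count in BskDN), Cpr49Af (278-fold lower, 49.4 to 11010, also from 1 count) and Cpr11B (277-fold lower, 127 to 756) had folds above that of Lcp9. Cpr65Ay had 0 counts in BskDN and 302 counts in control, at least 102-fold lower with BskDN set to the floor of 3 counts. In scrib BskDN 2 members were higher than in control (3.11% of all genes, so the members' 2.94% was near the background) and 29 lower (3.15%). There Lcp1, Lcp2 and Lcp3 were 3.85-fold, 4.14-fold and 5.55-fold lower than in control, while Lcp4 was 15.3-fold, Lcp9 99.1-fold and Vajk3 247-fold lower. Larval cuticle genes thus did not differ by one common factor in either library.

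Between scrib BskDN and BskDN, 2 members were higher in scrib BskDN (2.7% of all genes), Lcp3 and Cpr67Fb, and 1 was lower (1.31%), Cpr72Ea. Cpr67Fb had 5.87 CPM in scrib BskDN, 1.17 CPM in BskDN and 1.18 CPM in control, and 0.339 to 1.33 CPM elsewhere. It was the only member to stand 4-fold above every other library in scrib BskDN, as 0.309% of all genes did, and an antisense gene covers 389 of its 457 exon bases. Cpr72Ea was 15.2-fold lower in scrib BskDN (9.78 to 25.0), at 0.994 CPM, against 15.2 CPM in BskDN. The Tweedle genes TwdlU, TwdlF and TwdlW were each highest in scrib BskDN, at 3.79, 1.18 and 1.70 CPM, with 0.0998 to 0.967 CPM for TwdlU in the other 7 libraries. The scrib BskDN and BskDN libraries also differed in age by 5 days and in markers of other tissues. Higher in scrib BskDN than in BskDN were 5 of 12 muscle genes (median log2 difference 1.94), 7 of 9 salivary gland genes (4.48) and 3 of 7 neuron genes (1.59), while 3 of 8 fat body genes (-0.95) and 1 of 8 hemocyte genes (-1.14) were lower. Their part in the members' levels was not tested.

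The RasV12 library as the baseline in place of control, a comparison added after seeing the data, gave fewer lower calls, 4 to 8 where the same libraries had 29 to 32 over control. Higher calls were more than over control in BskDN, scrib BskDN and the late and early RasV12 scrib libraries. Over RasV12, 7 members were higher (1.5% of all genes) and 6 lower (0.877%) in BskDN, 7 higher (2.52%) and 8 lower (1.01%) in scrib BskDN, and 1 higher (1.15%) and 4 lower (0.688%) in RasV12 scrib BskDN. In RasV12 scrib late 3 were higher (5.15%) and 8 lower (1.86%), and in RasV12 scrib early 5 were higher (1.45%) and 5 lower (2.07%). Cpr47Eb was 139-fold higher than in RasV12 in RasV12 scrib late (63.4 to 379) and 93.2-fold higher in RasV12 scrib early (42.6 to 255). Cpr65Ec was lower than in RasV12 in the late and early libraries, by 110-fold (55.6 to 256) and 28.8-fold (20.3 to 42.4), and TwdlT was called lower in both too.

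Neighbouring genes often differed in where they were highest. Chaining cuticle rows whose gaps were under 20 kb gave 18 clusters that held 95 rows and 48 of the 68 members. Of the 12 clusters with 2 or more members, 4 had 1 library that was highest for all their members. These were Vajk1 to Vajk3, Lcp1 to Lcp4, Cpr78Ca with Cpr78Cc, and Cpr97Ea with Cpr97Eb, and in each it was control. As 41 of the 68 members were highest in control and other groupings of members were not counted, this number has no reference. In the Cpr47E cluster (2R, 11251751 to 11278445), Cpr47Eb and Cpr47Ee were highest in a RasV12 scrib library, while Cpr47Ec (between them) and Cpr47Eg were highest in control. In the Cpr49A cluster (2R, 12376626 to 12415170), Cpr49Aa and Cpr49Ad were highest in RasV12 scrib early, Cpr49Ac in wing-labelled scrib, and Cpr49Af, Cpr49Ag and Cpr49Ah in control. In the 65A cluster on 3L (6130386 to 6161589), 10 of 12 members were highest in control, Lcp65Ag2 in RasV12 scrib early and Lcp65Ad in RasV12.

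**Figure D5:**
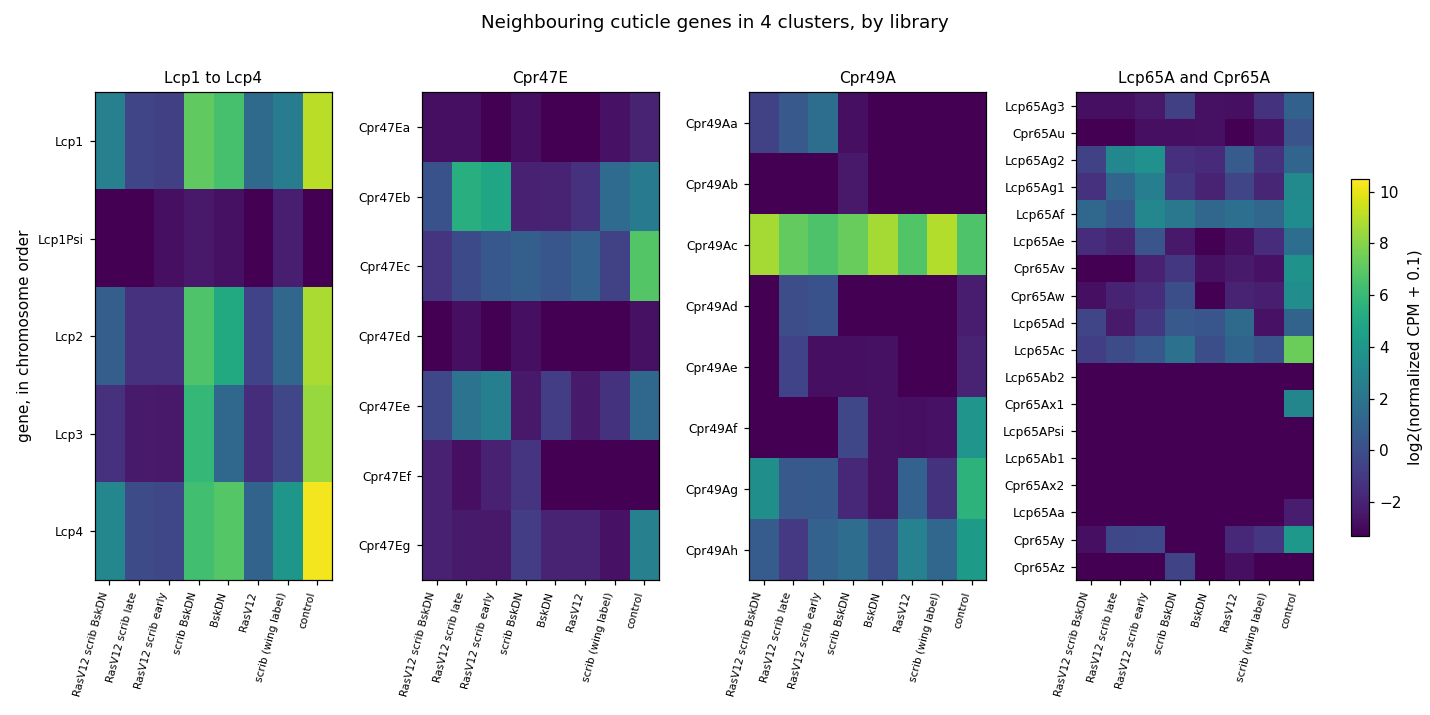
Log2 of normalized CPM plus 0.1 for all cuticle rows of 4 clusters in chromosome order (rows) in the 8 libraries (columns). The Lcp1 to Lcp4 genes share control as their highest library, while Cpr47Eb (41.3 CPM in RasV12 scrib late) and Cpr47Ec (111 CPM in control) lie side by side with different highest libraries.

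The largest Tweedle cluster, 12 genes on 3R (26619118 to 26641054), had no member, and 18 of the 26 Twdl rows stayed below 1 CPM everywhere. The Twdl sum was carried by TwdlE, with 54.1 CPM in RasV12 scrib BskDN, 49.9 and 53.3 CPM in the late and early RasV12 scrib libraries, 57.0 CPM in scrib BskDN, 39.4 CPM in BskDN, 23.7 CPM in RasV12, 14.0 CPM in wing-labelled scrib and 19.3 CPM in control. The libraries with scrib clones stood above the rest. An opposite-strand gene, lectin-28C (8.73 to 157 CPM), covers 968 of the 1346 exon bases of TwdlE, and with the strand setting of the counting unstated this level is uncertain. The Ccp84A members were Ccp84Aa, Ccp84Ab and Ccp84Ad. Ccp84Aa reached 3.20 CPM in wing-labelled scrib and 3.60 CPM in control, and Ccp84Ad reached 2.53 CPM in RasV12, against 0.913 CPM in control.

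Other genes of cuticle formation were counted in the same way, from lists that hold no member. Of 26 chitin synthesis and assembly genes, 0 were higher than in control in RasV12 and 3 lower, 0 and 3 in BskDN, 0 and 1 in scrib BskDN, 0 and 4 in RasV12 scrib BskDN, 1 and 2 in RasV12 scrib late, and 0 and 0 in RasV12 scrib early. The lower calls were thus 0 to 15.4% of the list, against 3.15 to 4.36% of all genes in these comparisons. The higher calls were 0 to 3.85% (RasV12 scrib late) of the list, against 0.688 to 5.94% of all genes. The chitin synthase gene kkv had 258 to 465 CPM in the 7 other libraries and 425 CPM in control. The chitinase gene Cht10 had 264 and 427 CPM in the late and early RasV12 scrib libraries and 1504 to 2494 CPM in the other 6. reb, whose protein promotes chitin deposition, was highest in RasV12 scrib late, at 41.3 CPM, against 8.22 CPM in control.

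Of 15 tanning and pigmentation genes, 0 were higher and 5 lower in RasV12 than in control, 0 and 2 in BskDN, 2 and 1 in scrib BskDN, 1 and 4 in RasV12 scrib BskDN, 1 and 3 in RasV12 scrib late, and 1 and 5 in RasV12 scrib early. The lower calls were 6.67% (scrib BskDN) to 33.3% (RasV12 and RasV12 scrib early) of the list, against 3.15 to 4.36% of all genes in the 6 comparisons. The higher calls were 0 to 13.3% (scrib BskDN) of the list, against 0.688 to 5.94% of all genes. ple, tyrosine hydroxylase, had 99.3 CPM in RasV12 scrib BskDN, 63.6 and 20.1 CPM in the late and early RasV12 scrib libraries, 92.3 CPM in scrib BskDN, 45.1 CPM in BskDN, 7.40 CPM in RasV12, 11.2 CPM in wing-labelled scrib and 31.4 CPM in control. Of 8 cuticle proteins outside the prefixes 3 reached 1 CPM. Pcp, a pupal cuticle protein, had 23.7 and 16.9 CPM in the late and early RasV12 scrib libraries, 4.88 to 9.43 CPM in 5 libraries and 15.0 CPM in control, and Edg91 was highest in control (11.5 CPM). Of 9 apical matrix proteins of the zona pellucida (ZP) class, 4 (44.4%, against 2.4% of all genes) were higher and 0 lower (1.56%) in RasV12 scrib BskDN than in RasV12 scrib early. Over control 0 were higher in any of the 6 comparisons, against 0.688 to 5.94% of all genes. In each of the late and early RasV12 scrib libraries 2 were lower (22.2%, against 3.94 and 4.36% of all genes). The ZP gene nyo had 87.3 CPM in RasV12 scrib BskDN, against 8.10 CPM in RasV12 scrib early.

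Of 15 genes of the ecdysone response and cuticle timing, 0 were higher and 3 lower in RasV12 scrib early than in control (against 1.01 and 4.36% of all genes). In the other 5 comparisons with control, 1 and 3 were called in RasV12 scrib late, 1 and 1 in BskDN, 1 and 0 in RasV12, and none in RasV12 scrib BskDN or scrib BskDN. Of all genes, 5.94, 0.688, 0.927, 1.11 and 3.11% were higher in these comparisons, in that order, and 3.94, 3.28, 3.27, 3.41 and 3.15% lower. The higher call in RasV12 scrib late (6.67%) was thus near the background. In RasV12 scrib BskDN over RasV12 scrib early, 4 were higher and 1 lower (26.7 and 6.67%, against 2.4 and 1.56% of all genes). Hr3, a nuclear receptor that follows the ecdysone pulse, had 238 CPM in RasV12 scrib BskDN, 3.24 and 0.619 CPM in the late and early RasV12 scrib libraries, 234 CPM in scrib BskDN, 234 CPM in BskDN, 30.9 CPM in RasV12, 14.8 CPM in wing-labelled scrib and 91.5 CPM in control. Blimp-1, an ecdysone-induced repressor, had 105 CPM in RasV12 scrib BskDN, 2.79 and 0.667 CPM in the late and early RasV12 scrib libraries, 101 CPM in scrib BskDN, 93.9 CPM in BskDN, 37.3 CPM in RasV12, 30.4 CPM in wing-labelled scrib and 48.0 CPM in control. Both genes were lowest in the late and early RasV12 scrib libraries and highest in the 3 libraries with BskDN. Not every gene of the list had that order. ftz-f1 had 96.4 and 124 CPM in the late and early RasV12 scrib libraries, against 13.4 to 28.6 CPM in the 3 libraries with BskDN. EcR, the ecdysone receptor, ranged only over 105 to 187 CPM. The part of developmental timing in the members' levels was not tested.

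At the edge of the 1 CPM rule, Twdlalpha (1.03 CPM before composition scaling) and Cpr49Ad (1.02 CPM) were just inside, while Ccp84Ag (0.973 CPM) and Cpr50Cb (0.919 CPM) were just outside. Of the 56 cuticle rows below 1 CPM, 13 had 0 counts in all 8 libraries. 19 of the 68 members stayed below 5 CPM everywhere and could not be called in any comparison. Cpr, the reductase that the prefix also caught, had 119 CPM in RasV12 scrib BskDN, 238 and 157 CPM in the late and early RasV12 scrib libraries, 115 to 161 CPM in scrib BskDN, BskDN, RasV12 and wing-labelled scrib, and 137 CPM in control.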

How the data were processed

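The authors deposited 1 table of whole-number counts per FlyBase gene with a column for each of the 8 libraries. TopHat2 and HTSeq are the aligner and counter named, per the submitters' processing notes. No source used here states their versions, the build and gene models they ran on, or how strand and overlapping genes were handled. The 5 tally rows were left out of library sizes (no gene 3.41 to 7.33%, ambiguous 1.46 to 1.83%, aligned to several places 14.8 to 27.8% of all counted and tallied reads). Reads with several alignments are thus not in the gene counts. Symbols and positions were joined by identifier from a BDGP6 annotation, which named 14639 identifiers and not 709, and 17 of 161 gene list entries were not matched.

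Counts were scaled with edgeR 4.0.16 (TMM) in R 4.3.3. Calls used log2 CPM with a prior count of 2, 4-fold and 5 CPM in the higher library. Levels have exact Poisson intervals, and single folds are ratios of normalized CPM with exact conditional binomial intervals. Procedures were tested on simulated data that held counting error only. The simulation therefore gives no rate of false calls between single libraries. Named genes were the 4 highest of each family, members of 20 CPM or more at least 4-fold above all other libraries (up to 4 a library), the 3 called with the largest folds each way per comparison, those at the edge of the rule and up to 4 examples a list, and others were named for cluster, overlap or pattern after their values were seen. The members and gene lists were chosen with earlier results of these data known. Alternatives were DESeq2 1.42.0 size factors, column sums, a prior count of 0.5, other CPM minimums and RasV12 as baseline.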

Additional observations from a re-analysis of the deposited data

How the results depend on the processing

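No paired analysis was possible because each group had 1 library, and leaving out a library would leave no comparison. DESeq2 size factors, column sums and a prior count of 0.5 kept all 18 counts of called members within 1.5 times. The members' median log2 difference was less stable. A prior count of 0.5 moved it by more than 0.1 in 6 of the 9 comparisons, and column sums did so in 1. Column sums moved the median of all genes by 0.14 (log2) for scrib BskDN over BskDN and by less than 0.1 in the other comparisons. Of 206 member and comparison pairs followed singly, none reversed. DESeq2 size factors ended the call of Cpr49Ac in RasV12 scrib BskDN over early, and column sums ended it and those of Lcp2 (-1.98) and Cpr66Cb (-1.94) in scrib BskDN over control.

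The CPM minimum set the counts, by construction. At 20 CPM, lower calls against control were 14 (RasV12 scrib BskDN), 14 (late), 13 (early), 12 (scrib BskDN), 14 (BskDN) and 13 (RasV12), and higher calls were 0 (RasV12 scrib BskDN), 1 (late), 1 (early), 0 (scrib BskDN) and 1 (RasV12). Late over early then had 0 higher and 0 lower, RasV12 scrib BskDN over early 1 and 1, and scrib BskDN over BskDN 1 and 0. With no minimum, higher calls against control were 2 (RasV12 scrib BskDN), 4 (late), 5 (early) and 4 (scrib BskDN). Late over early then had 2 higher and 7 lower, RasV12 scrib BskDN over early 12 and 9, and scrib BskDN over BskDN 11 and 2. The shares of all genes were not computed at 20 CPM or with no minimum. These counts therefore show only how far the minimum moves them, and cannot be set against a background.

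With RasV12 as the baseline, chosen after seeing the data, there were 4 lower (RasV12 scrib BskDN), 8 lower (late), 5 higher and 5 lower (early), 7 and 8 (scrib BskDN) and 7 and 6 (BskDN). The 29 to 32 lower calls against control thus rest on the control library, of which there is 1. Leaving out the wing-labelled library kept 23 members standing apart in control and 41 highest there. The count of 41 has no share of all genes beside it. The floor of 3 counts was worth 0.142 to 0.181 CPM, and the exact 95% interval of 0 counts reaches 0.175 to 0.223 CPM.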
